A study of Mus musculus with 8 samples.

Results

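Ribosome biogenesis was read here through 41 nucleolar and RNA polymerase I genes, listed by name, out of 25124 genes in a table made from CD4 T cells of the mouse spleen. Donor mice carried a pair of reporters, KLF2(GFP) FOXP3(RFP), in which fluorescence reports on KLF2 and on FOXP3. Cells without FOXP3 and with high CD44, a mark of antigen-experienced T cells, were divided by sorting into a KLF2-positive population (KLF2+) and a KLF2-negative one (KLF2-). Each population was held for 48 h either with anti-CD3 at 2.5 micrograms/mL plus anti-CD28 at 1.25 micrograms/mL, antibodies against the T cell receptor complex and a costimulatory receptor, or with no stimulus. The groups were stimulated KLF2+, unstimulated KLF2+, stimulated KLF2- and unstimulated KLF2- cells, with 2 libraries in each, numbered 1 and 2 in KLF2+ cells and 3 and 4 in KLF2- cells. All 4 groups share the reporter alleles and the CD44hi, FOXP3-negative sort. The strain, age, sex and number of mice, and whether libraries came from separate mice, were not stated in the sources used here, so p-values cover only the spread among these samples, possibly a technical one. In bulk samples such as these, fewer cells of a type and less RNA per cell cannot be told apart.

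Ribosomes are built in the nucleolus, where RNA polymerase I copies the ribosomal DNA into a long precursor RNA. Small nucleolar ribonucleoproteins (snoRNPs) guide chemical marks onto that precursor, the box C/D class adding methyl groups and the box H/ACA class turning uridine into pseudouridine, while large assemblies of proteins and helicases cut and fold it into the small and large subunits. Resting T cells keep this machinery low, and its genes are known as targets of the transcription factor MYC when a T cell leaves rest to grow and divide.

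The deposited values are estimated counts of reads over exons. Exon reads numbered 21.0 and 36.6 M in stimulated KLF2+ libraries, against 8.27 and 17.9 M in unstimulated KLF2+ libraries, and 4.53 and 2.99 M in stimulated KLF2- libraries, against 7.34 and 8.62 M in unstimulated KLF2- libraries. Reads over 1464 odorant and pheromone receptor genes, which T cells are not known to use, were taken as background. From their density, the background share of exon reads was 1.24% and 0.401% in stimulated KLF2+ libraries, against 7.06% and 2.61% in unstimulated KLF2+ libraries, and 11.4% and 20.1% in stimulated KLF2- libraries, against 7.80% and 7.09% in unstimulated KLF2- libraries. The shallowest library with the most background was therefore stimulated KLF2- replicate 4, and it also stood apart in content. Its 6 genes of stimulated T cells summed to 217 CPM (counts per 1 M reads with library sizes adjusted by TMM factors), against 763 CPM in stimulated KLF2- replicate 3 and 207 and 223 CPM in unstimulated KLF2- libraries. In it, 6 genes of dividing cells summed to 160 CPM, against 726 CPM in replicate 3. Single genes did not all follow the stimulation sum. In replicate 4 Nr4a1 and Egr2 lay above both unstimulated KLF2- libraries, while Il2ra, Batf and Irf4 lay below both. Results that rest on this library are given with and without it, and results on the scale of the main fit are given beside those on a corrected scale, for which the background was subtracted and the scaling factors were taken from genes with 50 CPM or more. These steps were changed together on the corrected scale, and a fit with the change of scaling alone was made beside it. In the KLF2+ response the members' median was 0.74 with the scaling alone and 0.73 with both steps. The median over the genes tested in each fit was -0.75 and -0.24 in that order. Klf2 itself measured 303 and 379 CPM in unstimulated KLF2+ libraries, against 41.02 and 64.96 CPM in unstimulated KLF2- libraries, a log2 fold change of 2.69 ± 0.33 (SE; by edgeR's quasi-likelihood test and Benjamini-Hochberg adjustment, adjusted p = 0.00455). The 8 T cell markers, Cd3e and Cd4 among them, were present in every library, with sums between 1884 and 5813 CPM. All marker sums and calls are on the scale of the main fit, where a lower TMM factor gives a higher CPM. The factors ran from 0.63 in stimulated KLF2+ replicate 2 to 1.54 in stimulated KLF2- replicate 4. Marker sums were not made on the corrected scale.

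In KLF2+ cells the ribosome biogenesis genes stood higher with the stimulus, and the log2 fold changes were largest for the box H/ACA proteins Gar1 and Nhp2 and for nucleophosmin (Npm1). Together the 41 genes took 0.774% and 0.790% of exon reads in stimulated KLF2+ libraries, against 0.476% and 0.470% in unstimulated KLF2+ libraries. This share uses no TMM factor, but it is relative to each library's total and so moves with the other genes too. In edgeR's fit of all 8 libraries 35 of the 41 were called higher (adjusted p under 0.05) and 0 lower, where 19.7% of the 19146 genes tested were called higher and 17.4% lower. All 41 genes passed the filter on low counts. Their median log2 fold change was 1.24, with a range of 0.02 to 2.47, beside a median of -0.25 over all genes tested. Both stimulated libraries lay above both unstimulated ones for 40 of the 41, Wdr12 being the exception, where 35.2% of all genes did so.

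The size of this rise depended on the scale. On the corrected scale 22 members were called higher and 1, Wdr12, lower, where 12.7% and 16.4% of 15292 genes were called, and the members' median was 0.73 beside -0.24 over all genes. Taking the scale from genes with 50 CPM or more, with no subtraction, also gave 22 higher and 1 lower, where 11.3% and 29.6% of genes were, so the count fell with the scaling alone. It moved the median of all genes to -0.75, and the members' median stood 1.495 above it, against 1.488 above it in the main fit. Without stimulated KLF2- replicate 4, which enters this contrast through the shared spread, the filter and the scaling, 40 members were called higher, where 21.5% of genes were, and 0 lower, where 13.8% were. DESeq2 called 35 higher, where 18.6% of genes were, and 0 lower, where 20.5% were. The count rested more on the KLF2+ libraries: it was 9 without unstimulated KLF2+ replicate 1, where 6.96% of genes were called higher, and 20 without stimulated KLF2+ replicate 2, where 9.1% were. It was 25 without stimulated KLF2+ replicate 1, where 13.3% of genes were called higher, and 33 without unstimulated KLF2+ replicate 2, where 22.2% were.

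Other gene groups moved along with the members in these libraries. The 6 genes of stimulated T cells summed to 3198 and 3843 CPM in stimulated KLF2+ libraries, against 244 and 288 CPM in unstimulated KLF2+ libraries, and all 6 were called higher. Genes of dividing cells summed to 3519 and 2994 CPM with the stimulus, against 197 and 170.0 CPM without it, and 6 of 6 were called higher. Myeloid markers went the other way, with sums of 51.4 and 89.2 CPM in stimulated and 850 and 1607 CPM in unstimulated KLF2+ libraries, and 7 of 8 were called lower; Lyz2 made up most of the sum and none of the 8 was at 0 in a KLF2+ library. The T cell markers summed to 5392 and 5813 CPM with the stimulus and to 3649 and 5706 CPM without it, and 1 of 8 was called higher. The B cell markers summed to 144 and 194 CPM with the stimulus, against 122 and 218 CPM without it, and 0 of 6 were called. The CD8 T cell pair summed to 26.5 and 22.5 CPM with the stimulus and to 11.4 and 13.0 CPM without it, with 1 called higher, while NK markers summed to 29.6 and 34.3 CPM, against 66.2 and 79.4 CPM, with 2 of 4 called lower. The part of these markers in the result was not tested.

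**Figure D1:**
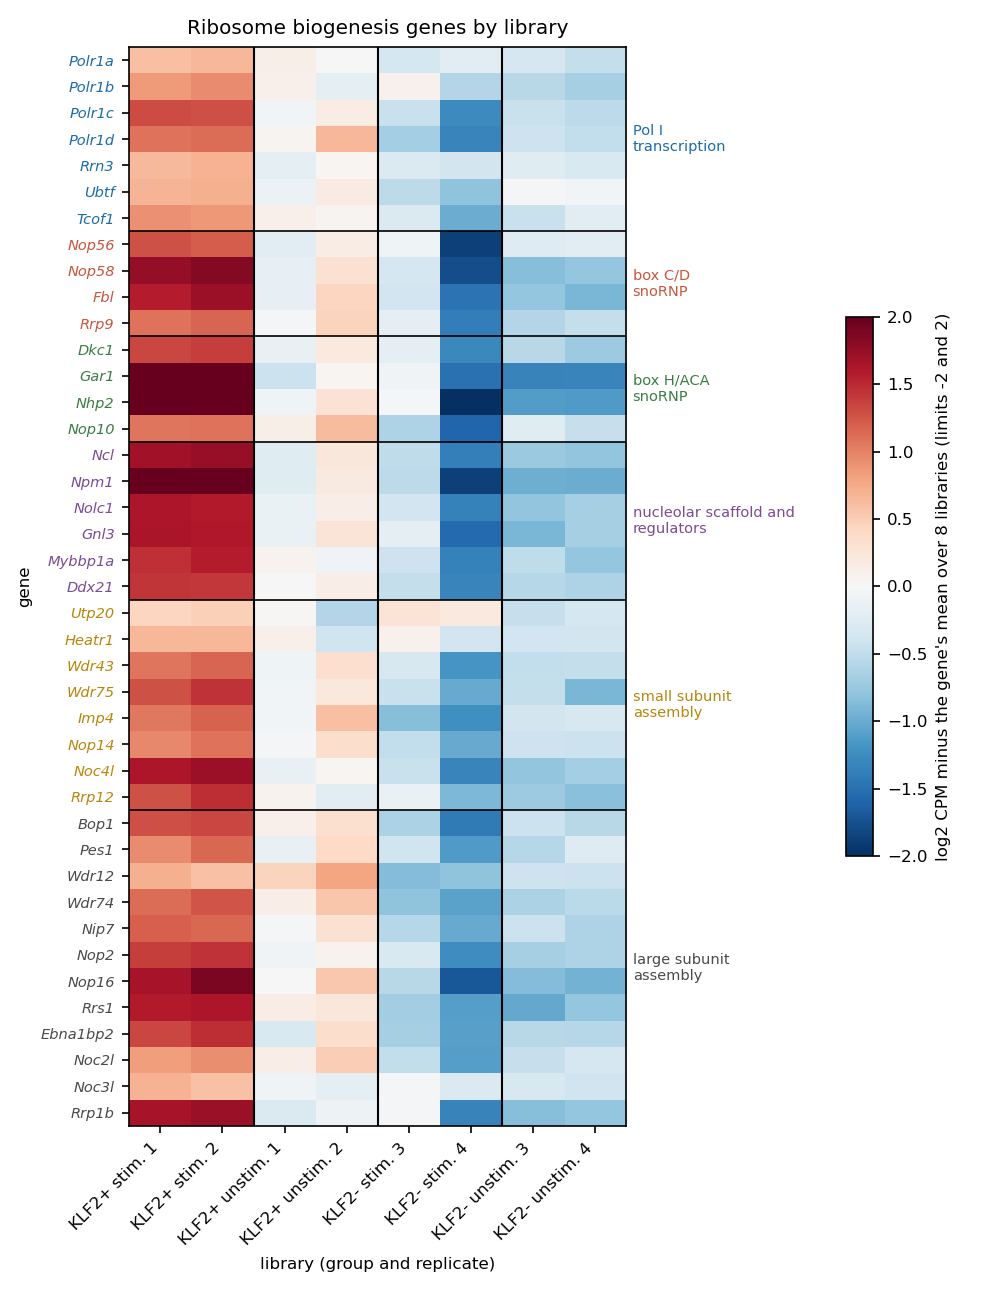
Level of each of the 41 ribosome biogenesis genes (rows, grouped by role) in each of the 8 libraries (columns), as log2 CPM minus the gene's mean over the 8 libraries, with colours limited at -2 and 2. Both stimulated KLF2+ libraries are red for nearly every gene. Stimulated KLF2- replicate 4 is the bluest column for most genes, the exceptions being Polr1a, Polr1b, Utp20, Heatr1, Wdr12 and Noc3l.

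Of the 7 genes of RNA polymerase I transcription, 6 were called higher in stimulated KLF2+ cells, with a median log2 change of 0.74. The largest response was that of Polr1c, a subunit shared by RNA polymerases I and III, which lies at chr17:46243920-46248045 (mm10). Polr1c stood at 93.95 and 92.8 CPM in stimulated KLF2+ libraries, against 36.6 and 42.4 CPM in unstimulated KLF2+ libraries, and it had 28.03 and 15.7 CPM in stimulated KLF2- libraries, against 27.9 and 26.6 CPM in unstimulated KLF2- libraries. It rose in KLF2+ cells by 1.24 ± 0.26 (edgeR's adjusted p = 0.00761), and by 0.73 ± 0.22 on the corrected scale, where it was the only polymerase gene still called. Polr1a, the largest and catalytic subunit, had the smallest change. Its level was 70.6 and 74.2 CPM in stimulated KLF2+ libraries, against 50.4 and 46.2 CPM in unstimulated KLF2+ libraries, and 36.6 and 40.1 CPM in stimulated KLF2- libraries, against 36.95 and 33.5 CPM in unstimulated KLF2- libraries. The KLF2+ rise of 0.58 ± 0.18 (edgeR's adjusted p = 0.0338) shrank to 0.14 ± 0.21, with overlapping groups, on the corrected scale, and was 0.064 with the change of scaling alone; on the scale of the deposited TPM the sign was negative. Background was an estimated 11.6% and 5.96% of its reads in unstimulated KLF2+ libraries and 20.7% and 29.1% in stimulated KLF2- libraries.

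Polr1d, the small partner of Polr1c in both polymerases, was the most abundant of the 7 per length. It measured 137 and 139.7 CPM in stimulated KLF2+ libraries, against 66.8 and 103 CPM in unstimulated KLF2+ libraries, and 40.1 and 25.9 CPM in stimulated KLF2- libraries, against 48.3 and 45.7 CPM in unstimulated KLF2- libraries. The unstimulated KLF2+ libraries were far apart, and its log2 fold change of 0.70 ± 0.26 was not called in KLF2+ cells (edgeR's adjusted p = 0.0547). Ubtf encodes the upstream binding factor that coats active ribosomal DNA. Its values were 350.0 and 357 CPM in stimulated KLF2+ libraries, against 202 and 246 CPM in unstimulated KLF2+ libraries, and 153 and 125 CPM in stimulated KLF2- libraries, against 213 and 210.4 CPM in unstimulated KLF2- libraries. The KLF2+ change was 0.66 ± 0.21 (edgeR's adjusted p = 0.0340), and only 0.14 ± 0.11, not called, on the corrected scale; on the TPM scale its sign turned negative. The remaining 3 were all called higher, with log2 fold changes between 0.74 for Rrn3, which carries the polymerase to the promoter, and 0.94 for Polr1b, the other subunit of the catalytic core, with Tcof1 (treacle, a nucleolar scaffold for the polymerase) at 0.81.

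Box C/D snoRNP genes had a median log2 fold change of 1.37 in KLF2+ cells, and 2 of 4 were called. Nop58, one of the paired core scaffold proteins of these particles (chr1:59685006-59711510), had the largest change of the 4. Its level was 422 and 443 CPM in stimulated KLF2+ libraries, against 111 and 153 CPM in unstimulated KLF2+ libraries, and 98.2 and 36.2 CPM in stimulated KLF2- libraries, against 68.8 and 73.1 CPM in unstimulated KLF2- libraries. It rose by 1.71 ± 0.38 in KLF2+ cells (edgeR's adjusted p = 0.0106), and by 1.20 ± 0.31 on the corrected scale. Fibrillarin, encoded by Fbl, is the methyltransferase of the particle. Fbl was found at 314 and 346 CPM in stimulated KLF2+ libraries, against 94.1 and 141 CPM in unstimulated KLF2+ libraries, and it had 80.5 and 37.9 CPM in stimulated KLF2- libraries, against 61.4 and 56.02 CPM in unstimulated KLF2- libraries. Its rise of 1.49 ± 0.33 was called on both scales (edgeR's adjusted p = 0.0102; 0.98 ± 0.23 on the corrected scale).

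Nop56, the other scaffold protein, was the most abundant box C/D gene per length and the most uneven. It stood at 676 and 644 CPM in stimulated KLF2+ libraries, against 241 and 309.8 CPM in unstimulated KLF2+ libraries, and it had 262 and 76.02 CPM in stimulated KLF2- libraries, against 234 and 241 CPM in unstimulated KLF2- libraries. The stimulated KLF2- replicates lay far apart, and the KLF2+ change of 1.26 ± 0.45 just missed the threshold (edgeR's adjusted p = 0.0502); without stimulated KLF2- replicate 4 it was called, at 1.26. Rrp9, which binds the snoRNA of the early processing particle, had 101 and 107 CPM in stimulated KLF2+ libraries, against 46.5 and 65.1 CPM in unstimulated KLF2+ libraries, and 41.9 and 18.3 CPM in stimulated KLF2- libraries, against 31.7 and 34.2 CPM in unstimulated KLF2- libraries. The KLF2+ groups did not overlap, but the change of 0.90 ± 0.32 was not called (edgeR's adjusted p = 0.0520). Nop56 hosts snoRNA genes in its introns and overlaps Idh3b on the other strand, and whether counting used strand was not stated in the sources used here, so its reads may include some from these neighbours.

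Box H/ACA snoRNP genes held both the largest response of all 41 and one of the smallest. Gar1, a core protein of the pseudouridine-forming particle (chr3:129824912-129831396), measured 202 and 212 CPM in stimulated KLF2+ libraries, against 31.3 and 43.5 CPM in unstimulated KLF2+ libraries, and 40.2 and 15.03 CPM in stimulated KLF2- libraries, against 16.7 and 16.9 CPM in unstimulated KLF2- libraries. It rose 5.52-fold in KLF2+ cells (2.47 ± 0.37; edgeR's adjusted p = 0.00235), and by 1.98 ± 0.32 on the corrected scale. Stimulated KLF2- replicate 3 was also above both unstimulated KLF2- libraries, while replicate 4 was below them. Nhp2, a core protein that binds the guide RNA, had 240.5 and 264 CPM in stimulated KLF2+ libraries, against 54.9 and 71.8 CPM in unstimulated KLF2+ libraries, and 57.04 and 13.5 CPM in stimulated KLF2- libraries, against 27.1 and 26.6 CPM in unstimulated KLF2- libraries. Its rise was 1.99 ± 0.48 in KLF2+ cells (edgeR's adjusted p = 0.0136) and 1.48 ± 0.45 on the corrected scale. Nop10, the smallest core protein and the most abundant of the 4 per length, stood at 180.3 and 184 CPM in stimulated KLF2+ libraries, against 93.7 and 134 CPM in unstimulated KLF2+ libraries, and it had 56.2 and 28.5 CPM in stimulated KLF2- libraries, against 72.8 and 62.5 CPM in unstimulated KLF2- libraries. Its change of 0.68 ± 0.30 was not called (edgeR's adjusted p = 0.0911), although the KLF2+ groups did not overlap. Dkc1 encodes dyskerin, the pseudouridine synthase itself, and was called higher with a log2 fold change of 1.33. The proteins of this particle therefore had unequal log2 fold changes in the same libraries, although the differences between genes were not tested.

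All 6 nucleolar scaffold and regulator genes were called higher in stimulated KLF2+ cells, on both scales, with a median log2 change of 1.57 in the main fit and 1.06 on the corrected scale. Npm1 encodes nucleophosmin, an abundant histone and ribosome chaperone of the outer nucleolus (chr11:33152498-33163206). Npm1 reached 1487 and 1387 CPM in stimulated KLF2+ libraries, against 261 and 348 CPM in unstimulated KLF2+ libraries, and 215 and 84.95 CPM in stimulated KLF2- libraries, against 157 and 156 CPM in unstimulated KLF2- libraries. It rose 4.71-fold in KLF2+ cells (2.24 ± 0.39; edgeR's adjusted p = 0.00397). Ncl encodes nucleolin, which binds ribosomal precursor RNA and chromatin. Ncl had 2181 and 2281 CPM in stimulated KLF2+ libraries, against 574 and 801 CPM in unstimulated KLF2+ libraries, and 480.1 and 263 CPM in stimulated KLF2- libraries, against 406 and 395 CPM in unstimulated KLF2- libraries. The rise was 1.70 ± 0.33 (edgeR's adjusted p = 0.00587). Its exon model in the deposited table is 8241 bases long and overlaps a small RNA gene on the same strand, which bears on its level per length. Ddx21, an RNA helicase that links polymerase I transcription to processing, changed least of the 6. Its level was 282 and 280.4 CPM in stimulated KLF2+ libraries, against 104 and 115 CPM in unstimulated KLF2+ libraries, and 75.5 and 42.04 CPM in stimulated KLF2- libraries, against 70.4 and 68.2 CPM in unstimulated KLF2- libraries, a KLF2+ rise of 1.36 ± 0.26 (edgeR's adjusted p = 0.00564). The other 3 were Nolc1, a chaperone of snoRNPs, at 1.59, Gnl3 (nucleostemin) at 1.54 and the nucleolar repressor Mybbp1a at 1.52.

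**Figure D2:**
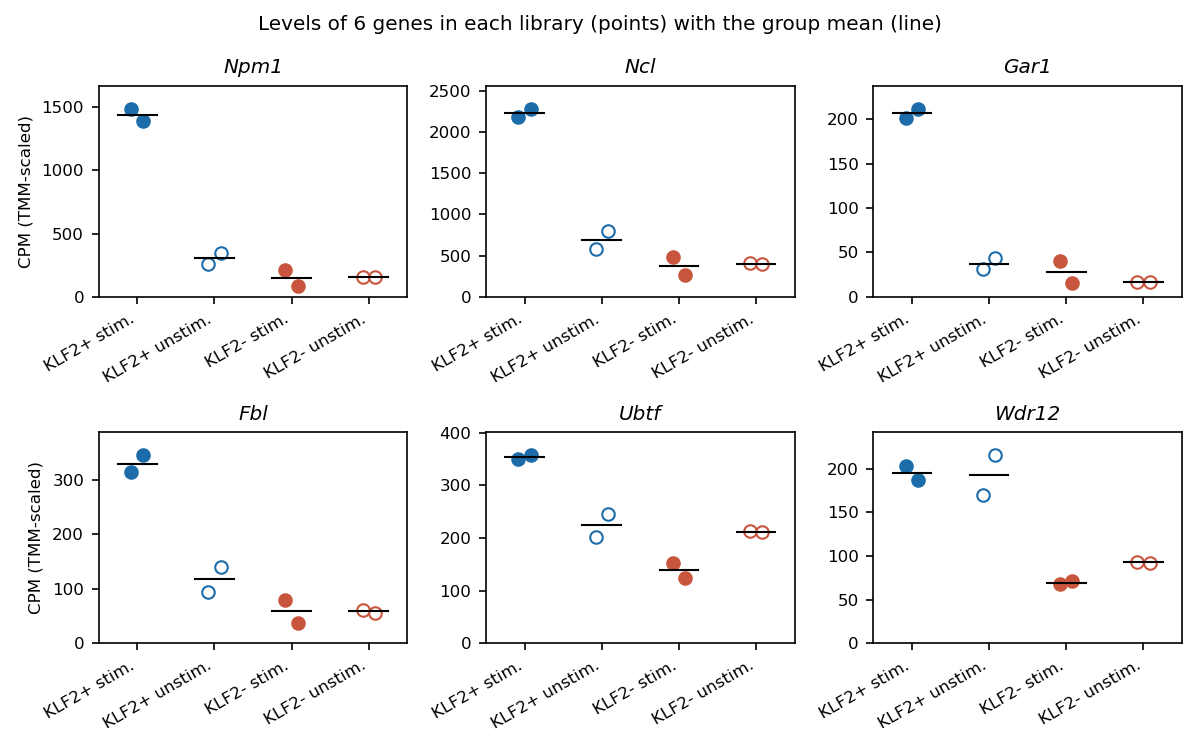
CPM scaled by TMM factors (y axis, from 0) of Npm1, Ncl, Gar1, Fbl, Ubtf and Wdr12 in the 4 groups (x axis), with a point for each of 2 libraries and a line at their mean. The stimulated KLF2+ libraries stand alone at the top for the first 5 genes, while for Wdr12 both KLF2+ groups lie together above both KLF2- groups.

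The small subunit assembly genes were all called higher in the main fit, 8 of 8, but their median was 0.91, below that of the scaffold genes, and 3 of the 8 were still called on the corrected scale. Noc4l, known from yeast as part of a nucleolar complex for small subunit maturation (chr5:110648419-110653382), led with 228 and 243 CPM in stimulated KLF2+ libraries, against 66.6 and 75.8 CPM in unstimulated KLF2+ libraries, and 54.6 and 29.8 CPM in stimulated KLF2- libraries, against 43 and 46.5 CPM in unstimulated KLF2- libraries. It rose by 1.73 ± 0.26 (edgeR's adjusted p = 0.00242), and by 1.21 ± 0.20 on the corrected scale. Utp20, a very large scaffold protein of the processome, was at the other end. Its level was 41.2 and 42.8 CPM in stimulated KLF2+ libraries, against 31.2 and 20.5 CPM in unstimulated KLF2+ libraries, and 37.3 and 35.3 CPM in stimulated KLF2- libraries, against 22.3 and 24.1 CPM in unstimulated KLF2- libraries. The change of 0.70 ± 0.24 was called in the main fit (edgeR's adjusted p = 0.0429) and not on the corrected scale (0.46 ± 0.30). Background was an estimated 27.2% and 19.4% of its reads in unstimulated KLF2+ libraries, and 6.2% and 1.9% in stimulated ones. Wdr43, which joins the processome through the complex that couples transcription to processing, was the most abundant of the 8 per length. It stood at 388 and 415 CPM in stimulated KLF2+ libraries, against 174 and 234 CPM in unstimulated KLF2+ libraries, and it had 149 and 81.5 CPM in stimulated KLF2- libraries, against 131 and 133 CPM in unstimulated KLF2- libraries, a KLF2+ rise of 0.97 ± 0.29 (edgeR's adjusted p = 0.0275). Imp4, known from yeast to help the processing snoRNA pair with the precursor, had 236 and 257 CPM in stimulated KLF2+ libraries, against 109 and 173 CPM in unstimulated KLF2+ libraries, and 62.97 and 48.8 CPM in stimulated KLF2- libraries, against 88.2 and 90.9 CPM in unstimulated KLF2- libraries. Its KLF2+ rise was 0.80 ± 0.24 (edgeR's adjusted p = 0.0311); neither Wdr43 nor Imp4 was called on the corrected scale. Heatr1, Wdr75, Nop14 and Rrp12 had log2 fold changes between 0.79 for Heatr1 and 1.46 for Rrp12.

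Among the 12 large subunit assembly genes 10 were called higher in stimulated KLF2+ cells, with a median of 1.06, and Wdr12 and Noc2l were not. On the corrected scale 7 were called higher and 1, Wdr12, lower, with a median of 0.55. Pes1, Wdr74, Noc2l and Noc3l were not called on that scale. Rrp1b, a nucleolar protein of large subunit processing (chr17:32036162-32062862), had the largest change. It measured 141 and 150.3 CPM in stimulated KLF2+ libraries, against 37.1 and 42.3 CPM in unstimulated KLF2+ libraries, and 44.02 and 17.9 CPM in stimulated KLF2- libraries, against 25.1 and 26.6 CPM in unstimulated KLF2- libraries. It rose by 1.87 ± 0.33 (edgeR's adjusted p = 0.00435), and by 1.46 ± 0.42 on the corrected scale. Rrs1, known from yeast to bring a small ribosomal RNA into the early large subunit, had 155 and 157 CPM in stimulated KLF2+ libraries, against 57.2 and 60.3 CPM in unstimulated KLF2+ libraries, and 31.8 and 23.96 CPM in stimulated KLF2- libraries, against 25.2 and 30.2 CPM in unstimulated KLF2- libraries. Replicates of Rrs1 lay close together, and its rise of 1.41 ± 0.20 was called on both scales (edgeR's adjusted p = 0.00180 in the main fit). Ebna1bp2, another early large subunit factor, was at 284 and 314 CPM in stimulated KLF2+ libraries, against 91.4 and 144 CPM in unstimulated KLF2+ libraries, and it had 71.5 and 53.1 CPM in stimulated KLF2- libraries, against 77.2 and 76.1 CPM in unstimulated KLF2- libraries, a KLF2+ rise of 1.34 ± 0.25 (edgeR's adjusted p = 0.00536). Nip7, a large subunit processing factor, had 167 and 160.5 CPM in stimulated KLF2+ libraries, against 71.8 and 89.3 CPM in unstimulated KLF2+ libraries, and 49.1 and 36.2 CPM in stimulated KLF2- libraries, against 53.8 and 47.3 CPM in unstimulated KLF2- libraries. Its KLF2+ rise was 1.02 ± 0.21 (edgeR's adjusted p = 0.00788). Wdr74, which works with a remodelling ATPase on the pre-large subunit, had 130.3 and 143 CPM in stimulated KLF2+ libraries, against 65.7 and 88.5 CPM in unstimulated KLF2+ libraries, and 34.6 and 28.8 CPM in stimulated KLF2- libraries, against 38.7 and 41.4 CPM in unstimulated KLF2- libraries. It rose by 0.83 ± 0.21 in KLF2+ cells (edgeR's adjusted p = 0.0160), and the unstimulated KLF2+ libraries also lay above the unstimulated KLF2- ones. Noc2l, a nucleolar complex protein and histone acetylation inhibitor, was the most abundant of the 12 per length, with 382 and 406 CPM in stimulated KLF2+ libraries, against 234 and 299.5 CPM in unstimulated KLF2+ libraries, and 153 and 99.8 CPM in stimulated KLF2- libraries, against 155 and 169 CPM in unstimulated KLF2- libraries. Its change of 0.56 ± 0.25 was not called (edgeR's adjusted p = 0.0908) and was 0.039 ± 0.13 on the corrected scale. The others, Nop2 (a methyltransferase of ribosomal RNA), Nop16 and Noc3l, were called higher, with changes of 1.41 for Nop2, 1.48 for Nop16 and 0.78 for Noc3l.

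Bop1, Pes1 and Wdr12 form one complex, which is needed for large subunit processing, and their log2 fold changes were unequal. Pes1 is described beside the others after its values were seen. Wdr12 had 203 and 187 CPM in stimulated KLF2+ libraries, against 169.8 and 216 CPM in unstimulated KLF2+ libraries, and 68.2 and 71.01 CPM in stimulated KLF2- libraries, against 93.7 and 92.3 CPM in unstimulated KLF2- libraries. Its KLF2+ groups overlapped, with a log2 fold change of 0.017 ± 0.19 that was not called (edgeR's adjusted p = 0.948). On the corrected scale Wdr12 was lower in both stimulated KLF2+ libraries, at 135 and 123 corrected CPM, against 183 and 181 corrected CPM in unstimulated KLF2+ libraries, and was called lower with a log2 fold change of -0.50 ± 0.16, and with the change of scaling alone it was -0.48, so its direction depended on the scale. Bop1 had 253 and 263 CPM in stimulated KLF2+ libraries, against 111 and 129.6 CPM in unstimulated KLF2+ libraries, and 66.8 and 39.2 CPM in stimulated KLF2- libraries, against 77.05 and 70.4 CPM in unstimulated KLF2- libraries. It was called higher by 1.10 ± 0.25 (edgeR's adjusted p = 0.0111), and by 0.58 ± 0.17 on the corrected scale. Pes1 had 205 and 236 CPM in stimulated KLF2+ libraries, against 95.8 and 139.9 CPM in unstimulated KLF2+ libraries, and 80.8 and 48.4 CPM in stimulated KLF2- libraries, against 71.6 and 88.7 CPM in unstimulated KLF2- libraries, and was called higher by 0.90 ± 0.28 in the main fit (edgeR's adjusted p = 0.0332). On the corrected scale the change of Pes1 was 0.41 ± 0.19 and was not called. The difference between the complex's genes was not itself tested. Wdr12 overlaps Carf on the other strand and Bop1 overlaps Mroh1 and Scx, so part of their reads may come from those genes.

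Because the members moved together, their promoters were searched for short motifs. RefSeq promoters of mouse build GRCm38.p6, from 250 bases before to 50 after the start, were matched for 35 of the 41; Tcof1, Fbl, Npm1, Rrp12, Bop1 and Rrs1 were not matched. Shares are of genes with the motif in any of their promoters. The E-box CACGTG, a palindrome bound by MYC with MAX among other factors, was in 7 of 35 members (20%). It was in 10.2% of the other tested genes and 8.09% of all genes with a promoter. The ETS motif CCGGAAG, searched on both strands, was in 12 of 35 (34.3%), beside 15% of other tested genes and 9.93% of all genes with a promoter. The NRF1 motif, a palindrome, was in 0 of 35, beside 1.75% of other tested genes and 1.07% of all genes with a promoter. These motifs do not overlap each other in letters. Nop2 and Rrn3 held both an E-box and an ETS motif, and 18 members held none of these motifs. A match is a description of letters and not of binding, and no test was made. The E-boxes before the start, all 4 of them, and the ETS matches of Gar1 and Nhp2, Polr1c and Nop2, are shown because these genes had the largest KLF2+ responses among the matched promoters (Gar1 and Nhp2) or stand for the polymerase and the large subunit; they are written 5′ to 3′ on the gene's strand, with the motif in capitals.
Gar1, chr3:129831415-129831456, minus strand, ETS motif on the opposite strand: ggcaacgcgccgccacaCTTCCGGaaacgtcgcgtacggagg
Nhp2, chr11:51619733-51619772, plus strand, ETS motif: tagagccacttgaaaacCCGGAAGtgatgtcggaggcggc
Polr1c, chr17:46248063-46248104, minus strand, ETS motif: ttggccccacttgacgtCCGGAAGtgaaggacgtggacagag
Nop2, chr6:125131828-125131869, plus strand, ETS motif: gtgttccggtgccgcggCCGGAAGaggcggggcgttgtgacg
Nop2, chr6:125131806-125131846, plus strand, E-box: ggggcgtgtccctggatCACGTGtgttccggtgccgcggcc
Imp4, chr1:34439691-34439731, plus strand, E-box: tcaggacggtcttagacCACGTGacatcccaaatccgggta
Rrn3, chr16:13780467-13780507, plus strand, E-box far from the start: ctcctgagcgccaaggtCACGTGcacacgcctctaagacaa
Rrn3, chr16:13780634-13780674, plus strand, E-box near the start: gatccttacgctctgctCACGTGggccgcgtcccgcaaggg
The ETS matches of Gar1, Polr1c, Nop2 and Nhp2 begin 43, 42, 38 and 23 bases before the start in that order of genes, and the E-boxes of Nop2 and Rrn3 nearest the start begin 60 and 48 bases before it. Gar1 and Nhp2, with the largest KLF2+ responses among the promoters matched, hold the ETS motif and no E-box, while Rrn3, with E-boxes and ETS motifs, had a log2 fold change of 0.74, below the members' median. The next largest, Rrp1b at 1.87, Noc4l at 1.73 and Nop58 at 1.71, hold none of the motifs. Noc2l at 0.56 and Noc3l at 0.78 hold the ETS motif. A relation between motif and response was not tested.

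In KLF2- cells the same stimulus gave no called change in any ribosome biogenesis gene. The 41 genes took 0.475% of exon reads in stimulated KLF2- replicate 3 and 0.310% in replicate 4, against 0.372% and 0.363% in unstimulated KLF2- libraries, so the replicates lay on either side of the unstimulated ones. By edgeR's quasi-likelihood test 0 members were called in either direction, as were 0% of all genes tested. In that test 3 of the 41 members passed an unadjusted p under 0.05 (Ubtf, Imp4 and Utp20), a smaller share than the 2802 of 19146 genes that did. DESeq2 also called 0 members, with 0.157% of genes called higher and 0.104% lower. The median over members was -0.09, beside 0.06 over all genes. Its sign depended on the scale: it was 0.28 on the corrected scale, beside 0.13 over all genes, and 0.25 when scaled on genes with 50 CPM or more, beside 0.45. Groups overlapped for 29 of 41 members. Both stimulated libraries were higher for 2, Utp20 and Noc3l, where 31.2% of all genes were, and both were lower for 10, among them Polr1d, Ubtf, Nop10, Imp4 and Wdr12, where 30.2% were. With corrected values 9 were higher in both, where 32.1% of genes were, and Ubtf and Imp4 were lower in both, where 17.5% were.

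The KLF2- response turned on which stimulated library was read. Without replicate 4 the members' median was 0.22, with 29 of 41 above 0, and Gar1 had the highest value at 1.25; 0 members were called, where 0.522% of genes were called higher and 0.0256% lower. Without replicate 3 the median was -0.68, with 3 of 41 above 0 and 1 member called lower, where 0.268% of genes were. These medians are relative to 0.001 over all genes without replicate 4 and 0.070 without replicate 3. On the corrected scale and without replicate 4, an alternative added after the data were seen, 7 members were called higher, where 1.73% of genes were called higher and 0.762% lower. In replicate 3, Gar1, Nhp2 and Rrp1b were each above both unstimulated KLF2- libraries, and in replicate 4 each was below them. The summed markers of stimulated and of dividing T cells showed the same split between these replicates: 763 and 217 CPM for stimulation and 726 and 160 CPM for division in replicates 3 and 4, against 207 and 223 CPM and 184 and 171 CPM in the unstimulated KLF2- libraries. Single stimulation markers did not all follow it. In replicate 4 Nr4a1 and Egr2 had 49.7 and 19.2 CPM, against 37.3 and 42.9 CPM in replicate 3. Unstimulated KLF2- libraries had 7.90 and 7.31 CPM of Nr4a1 and 6.62 and 5.58 CPM of Egr2. Il2ra, Batf and Irf4 were below both unstimulated libraries in replicate 4, and Tnfrsf4 lay between them. Myeloid markers summed to 36.1 and 61.4 CPM in stimulated and 37.9 and 38.6 CPM in unstimulated KLF2- libraries, with C1qb at 0 in replicate 4. Their part in the result was not tested.

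**Figure D3:**
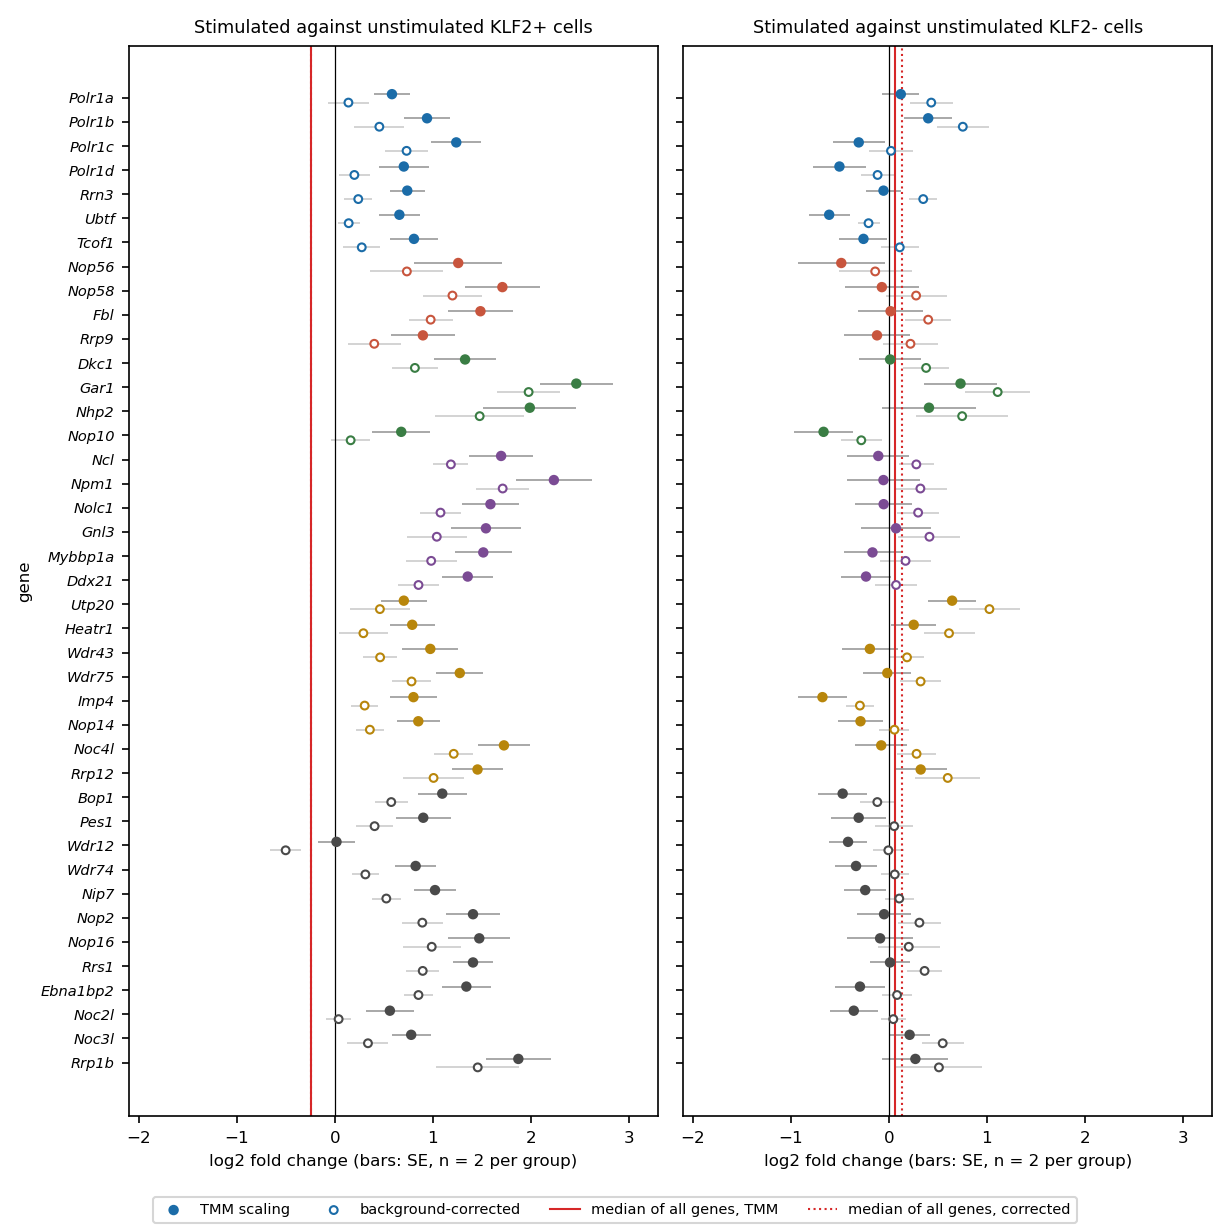
Log2 fold change (x axis) of each of the 41 genes (y axis, coloured by role) with the stimulus in KLF2+ cells (left) and KLF2- cells (right), with filled points for TMM scaling, open points on the corrected scale, bars for 1 standard error and 2 libraries per group; red lines mark the median of all genes on each scale, and those of the left panel nearly coincide. The left panel has all filled points above 0 and a spread from Wdr12 at 0.02 to Gar1 at 2.47, while points in the right panel scatter around 0 and shift to the right on the corrected scale.

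Without a stimulus the members already stood somewhat higher in KLF2+ cells, but few passed the test. Their share of exon reads was 0.476% and 0.470% in unstimulated KLF2+ libraries, against 0.372% and 0.363% in unstimulated KLF2- libraries. Wdr12 and Rrs1 alone were called higher among the 41 and 0 were called lower, where 1.07% of all genes were called higher and 1.25% lower. All 41 log2 fold changes were positive in the main fit, with a median of 0.67 beside -0.11 over all genes. In that fit 29 members had an unadjusted p under 0.05, as did 3672 of the 19146 genes tested. Wdr12 was called higher by 1.05 ± 0.20 (edgeR's adjusted p = 0.0236), and Rrs1 by 1.08 ± 0.20 (edgeR's adjusted p = 0.0258). Both stayed called on the corrected scale, at 0.75 ± 0.16 for Wdr12 and 0.83 ± 0.17 for Rrs1, where 0.974% of genes were called higher and 3.05% lower; there the members' median was 0.39, with 37 of 41 above 0. For 37 members both unstimulated KLF2+ libraries lay above both unstimulated KLF2- ones, where 26.2% of genes did so; Ubtf, Nop56, Utp20 and Heatr1 overlapped. That count was 30 on the corrected scale, with Rrn3, Ubtf and Nop56 below in both libraries, where 18.2% of genes were above and 42.1% below.

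The number of calls without stimulus moved with single libraries, including those of the stimulated groups, which enter through the shared spread, the filter and the scaling. It was 13 without stimulated KLF2- replicate 4, where 2.28% of genes were called higher and 1.65% lower, 10 without stimulated KLF2- replicate 3, where 2.05% were higher, and 7 without unstimulated KLF2+ replicate 1, where 5.47% were. It was 1 without either stimulated KLF2+ library, where 1.07% of genes were higher each time. It was 0 without unstimulated KLF2+ replicate 2, unstimulated KLF2- replicate 3 or unstimulated KLF2- replicate 4, where 0.0542%, 0.0741% and 0.0989% of genes were called higher in that order. DESeq2 called 8 members higher, where 3.13% of genes were, and 0 lower, where 2.34% were. The sums of T cell markers were 3649 and 5706 CPM in unstimulated KLF2+ libraries, against 2680 and 3006 CPM in unstimulated KLF2- libraries, with 1 of 8 called higher, and those of B cell markers were 122 and 218 CPM, against 73.1 and 88.8 CPM, with 2 of 6 called. Myeloid markers stood at 850 and 1607 CPM in KLF2+ libraries, against 37.9 and 38.6 CPM in KLF2- libraries, and 3 of 8 were called higher, while NK markers were at 66.2 and 79.4 CPM, against 48.7 and 39.4 CPM, with 1 of 4 called higher. Their part in the result was not tested.

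With the stimulus present in both, KLF2+ cells had higher levels of ribosome biogenesis genes than KLF2- cells. By share of exon reads the members took 0.774% and 0.790% in stimulated KLF2+ libraries, against 0.475% and 0.310% in stimulated KLF2- libraries. The main fit called 40 of 41 higher, all but Utp20, where 35.5% of genes were called higher and 39.7% lower, so in this comparison most genes of the table were called one way or the other. The median over members was 2.09, beside -0.19 over all genes. The corrected scale left 30 members called higher and 0 lower, where 16% of genes were higher and 38.6% lower, with a median of 0.92 beside -0.47 over all genes. The change of scaling alone gave 31 higher and 1 lower, where 11.9% of genes were higher and 58.3% lower. Without stimulated KLF2- replicate 4 the count was 39 in the main fit, where 31.5% of genes were higher, with a median of 1.75, and 27 on the corrected scale without that library, where 13.7% of genes were higher.

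The smallest p-values of this comparison belonged to Rrs1, Wdr74, Noc4l, Nip7 and Bop1, of which all but Noc4l act on the large subunit. Rrs1 was called higher by 2.48 ± 0.21 (edgeR's adjusted p = 0.000217), and by 1.36 ± 0.18 on the corrected scale. Noc4l was higher by 2.48 ± 0.27 (edgeR's adjusted p = 0.000248), Bop1 by 2.28 ± 0.26 (edgeR's adjusted p = 0.000271), Wdr74 by 2.11 ± 0.22 (edgeR's adjusted p = 0.000237) and Nip7 by 1.94 ± 0.22 (edgeR's adjusted p = 0.00027), and all 5 were called on the corrected scale as well. The largest difference was that of Npm1 at 3.26 ± 0.41, which was 2.02 ± 0.28 on the corrected scale. All 41 members lay higher in both stimulated KLF2+ libraries than in both stimulated KLF2- ones in the main fit, where 43.2% of genes did. Corrected values did so for 34, where 29.7% of genes did, while Rrn3, Utp20, Heatr1 and Noc3l lay lower in both, so the direction of these 4 turned with the scale. By role the polymerase genes were the least different, with a median of 1.35 in the main fit and 0.10 on the corrected scale, and 2 of 7 still called, Polr1c and Polr1d. The box H/ACA genes had a median of 2.46 and 1.26 on these scales, with 4 of 4 called on both, and the 6 scaffold genes had 2.36 and 1.21, with 6 of 6 called on both. Klf2, the basis of the sort, had 93.5 and 139 CPM in stimulated KLF2+ libraries, against 46.5 and 75.8 CPM in stimulated KLF2- libraries, and its log2 fold change was 0.93 ± 0.32 in the main fit but -0.39 ± 0.37 on the corrected scale, where it was not called. Markers of stimulated T cells summed to 3198 and 3843 CPM in KLF2+ libraries, against 763 and 217 CPM in KLF2- libraries, and those of dividing cells to 3519 and 2994 CPM, against 726 and 160 CPM, with 6 of 6 called higher in each. T cell markers were at 5392 and 5813 CPM, against 2047 and 1884 CPM, with 8 of 8 called higher. The TMM factors behind these CPM were 0.63 and 0.63 in stimulated KLF2+ libraries, against 1.34 and 1.54 in stimulated KLF2- libraries. Part of each gap between the marker sums of these groups is therefore the scaling. B cell markers summed to 144 and 194 CPM, against 51.4 and 106 CPM, with 3 of 6 called higher, and 2 of 8 myeloid markers were called higher and 3 lower. Their part in the result was not tested.

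Whether the populations answered the stimulus differently was tested as a difference between their responses, KLF2+ minus KLF2-. In the main fit 31 of 41 members had a larger response in KLF2+ cells and 0 a smaller one, where 20.3% of genes were called higher and 15.5% lower, with a median of 1.35 beside -0.09 over all genes. The smallest p-values belonged to Noc4l, Rrs1, Ebna1bp2, Bop1 and Ddx21. For Noc4l the difference was 1.80 ± 0.37 (edgeR's adjusted p = 0.0173), for Rrs1 1.40 ± 0.29 (edgeR's adjusted p = 0.0173), for Ebna1bp2 1.64 ± 0.36 (edgeR's adjusted p = 0.0186), for Bop1 1.57 ± 0.35 (edgeR's adjusted p = 0.0193) and for Ddx21 1.59 ± 0.36 (edgeR's adjusted p = 0.0199). Not called were Polr1a, Polr1b, Nop56, Rrp9, Nhp2, Utp20, Heatr1, Wdr12, Noc2l and Noc3l. In the same test 3 of 6 markers of stimulated T cells, 5 of 6 of dividing cells and 2 of 8 of T cells were called higher, and 6 of 8 myeloid markers and 1 of 4 NK markers lower. Their part in the result was not tested.

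By edgeR 0 members were called on the corrected scale, where 3.58% of genes were called higher and 8.24% lower. In that fit 8 of the 41 members had an unadjusted p under 0.05, a smaller share than the 5548 of 15292 genes that did. The members' median was 0.46 beside -0.24 over all genes, with 33 of 41 above 0. DESeq2 on the uncorrected counts called 30, where 16.1% of genes were higher and 19.2% lower. Leaving out single libraries moved the 31 calls to 0 without unstimulated KLF2+ replicate 1, unstimulated KLF2- replicate 3 or unstimulated KLF2- replicate 4, where 1.64%, 0.331% and 0.316% of all genes were called higher in that order. The count was 2 without stimulated KLF2+ replicate 2, where 5.64% of genes were called higher, and 18 without stimulated KLF2- replicate 4, where 11.1% of genes were called higher. Relative to the median of all genes, the members' median difference was 1.44 in the main fit, 1.52 with the change of scaling alone, and 0.70 on the corrected scale. The change of scaling alone called 4 members, where 5.31% of genes were called higher and 26.6% lower, so most of the calls were already lost without any subtraction.

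**Figure D4:**
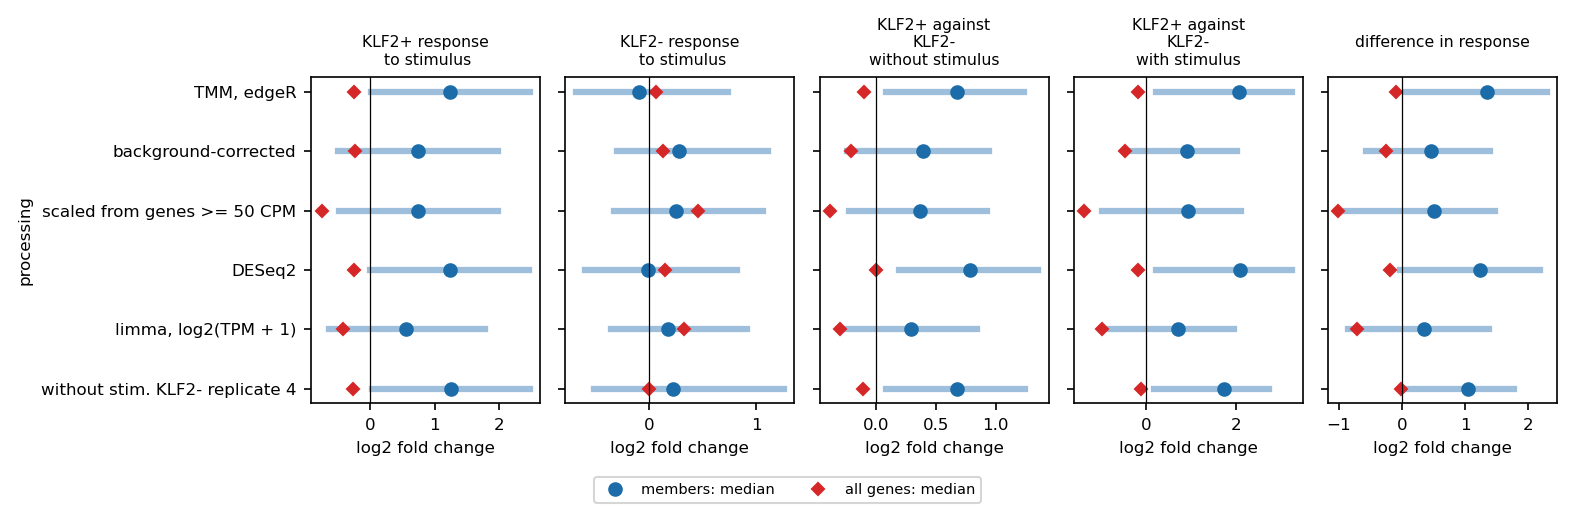
Median log2 fold change of the 41 genes (blue points, with a bar from the lowest to the highest gene) and median of all genes tested (red diamonds) in the 5 comparisons (panels, each with its own x axis) under 6 ways of processing (rows). The members' median stays to the right of that of all genes in each row except those of the KLF2- response, where the order differs between rows.

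The members belong to a longer pathway, of which 129 further genes of the polymerase, the processome, large subunit assembly, snoRNP assembly and the exosome were listed and all tested. In stimulated against unstimulated KLF2+ cells 91 were called higher and 1 lower, with a median of 0.86, where 19.7% of all genes were called higher and 17.4% lower. On the corrected scale 38 were called higher and 3 lower, with a median of 0.37, where 12.7% and 16.4% of all genes were. The 3 largest called changes were those of Mrto4, Exosc9 and Bysl, and the 3 smallest those of Mdn1, Bms1 and Nol9. Mrto4, a placeholder for a stalk protein of the large subunit, had 108 and 131 CPM in stimulated and 27.4 and 38.0 CPM in unstimulated KLF2+ libraries, and rose by 1.86 ± 0.28 (SE). Exosc9, a subunit of the RNA-trimming exosome, had 184 and 173 CPM in stimulated and 40.1 and 61.9 CPM in unstimulated KLF2+ libraries, and rose by 1.80 ± 0.25. Bysl, a small subunit factor, had 256 and 243 CPM with the stimulus, against 62.4 and 81.0 CPM without it, and rose by 1.80 ± 0.36. All 3 were called on the corrected scale as well. Mdn1, a giant ATPase that strips factors from the pre-large subunit, was the 1 gene called lower, at 33.5 and 24.6 CPM in stimulated and 71.2 and 40.8 CPM in unstimulated KLF2+ libraries, a change of -0.95 ± 0.30. Bms1, a small subunit GTPase, and Nol9, a kinase of precursor RNA, changed by 0.54 ± 0.17 for Bms1 and 0.61 ± 0.19 for Nol9, and neither was called on the corrected scale. In KLF2- cells 0 of the 129 were called by edgeR, with 17 at an unadjusted p under 0.05, as were 2802 of the 19146 genes tested.

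Genes for proteins of the finished ribosome were also read in the same fits. Of 85 cytosolic ribosomal protein genes 83 were tested; 80 were called higher in stimulated KLF2+ cells, with a median of 1.37, and 72 higher and 1 lower on the corrected scale, with a median of 0.86. In the difference between responses 80 of the 83 were called higher in the main fit and 53 on the corrected scale. Over all genes 20.3% and 3.58% were called higher on these scales. Of 78 mitochondrial ribosomal protein genes 72 were called higher in stimulated KLF2+ cells and 36 on the corrected scale. In the KLF2+ response 19.7% of all genes were called higher and 17.4% lower in the main fit. On the corrected scale 12.7% were higher and 16.4% lower. Many ribosomal protein genes have near-identical pseudogene copies, so their counts are uncertain. Myc, whose product is known to drive these genes, had 402 and 430.0 CPM in stimulated KLF2+ libraries, against 115 and 112 CPM in unstimulated KLF2+ libraries, and 89.0 and 11.8 CPM in stimulated KLF2- libraries, against 69.8 and 48.9 CPM in unstimulated KLF2- libraries. It was called higher by 1.87 ± 0.63 in KLF2+ cells (SE; edgeR's adjusted p = 0.0428), while on the corrected scale the change was 1.34 ± 0.70 and was not called. In KLF2- cells the log2 fold change of Myc was -0.22 ± 0.63, and 0.043 on the corrected scale, with neither called and with replicate 3 above and replicate 4 below both unstimulated libraries.

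Levels can be compared between genes only per length, in the deposited TPM. On that scale Npm1 was the most abundant member, with 650 ± 38.0 TPM in stimulated KLF2+ cells, against 219 ± 4.67 TPM in unstimulated KLF2+ cells, and 177 ± 89.3 TPM in stimulated KLF2- cells, against 146 ± 4.07 TPM in unstimulated KLF2- cells (mean ± SD, n = 2 each). Over the 8 libraries its mean was 298 TPM, followed by Nop56 at 158 TPM, Nop10 at 133 TPM, Fbl at 110 TPM and Ncl at 99.2 TPM. The lowest were Polr1a at 8.6 TPM and Utp20 at 4.2 TPM. Utp20 had the highest estimated background share of the members in each library except stimulated KLF2- replicate 4, where background reached 51.6% of the reads of Rrp1b. For Npm1, Nop56, Nop10, Fbl and Ncl the SD was largest in stimulated KLF2- cells among the 4 groups.

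Some members also share a feature of their genes that the choice did not use. In 5 of the 41 (12.2%), Nop56, Nop58, Ncl, Gnl3 and Wdr43, an annotated snoRNA gene lies inside the gene on the same strand, beside 73 of 23733 other genes (0.308%). These 5 held 10 snoRNA genes, among them Snord110 and Snord57 in Nop56, Snord11 and Snord70 in Nop58, and Snora75 and Snord82 in Ncl. The host genes of box C/D snoRNAs thus include proteins of the box C/D particle, Nop56 and Nop58. In stimulated KLF2+ cells the log2 fold changes of the 5 hosts ran from 0.97 for Wdr43 to 1.71 for Nop58, within the range of the other members. On the opposite strand Dkc1 overlaps Mpp1, Nhp2 overlaps Rmnd5b, Gnl3 overlaps Glt8d1, Mybbp1a overlaps Spns2 and Noc2l overlaps Samd11, and on the same strand Ebna1bp2 overlaps D4Ertd617e, so the counts of these members may hold reads of their neighbours.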

How the data were processed

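Gene expression was measured by RNA sequencing in 8 libraries of sorted mouse CD4 T cells, 2 in each of 4 groups set by the labels. The submitters' processing notes name STAR 2.7.9, HOMER 4.11, SAMtools and DESeq2. The build is mm10, per the file headers. The sources used here do not give the treatment of strand. The titles name polyA RNA while the kit in the labels is a stranded pico kit, and how these go together was not given. The deposited estimated counts of exon reads are multiples of 0.5 and were rounded to whole numbers. The deposited TPM values are per transcript length, and each library's column sums to between 0.504 and 0.523 M. Depth was 2.99 to 36.6 M exon reads per library, so stimulated KLF2- replicate 4 gives the least precise values.

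With R 4.3.3, edgeR 4.0.16 fitted 1 coefficient per group by quasi-likelihood with TMM scaling to the 19146 genes kept by filterByExpr, leaving 4 residual degrees of freedom, and p-values were adjusted by Benjamini-Hochberg over all of them. CPM are scaled by the TMM factors, and log2 fold changes are given ± SE. In the background-corrected fit the read density over 1464 odorant and pheromone receptor genes (1683.9 kb of exon) was subtracted from each gene by exon length in each library, and scaling factors came from genes of at least 50 CPM, so both steps differ from the main fit at once. Alternatives were DESeq2 1.42.0, scaling from genes of at least 50 CPM, no filter, limma 3.58.1 on log2(TPM + 1) and log2(TPM + 0.1), a replicate block and each library left out; the background-corrected fit without stimulated KLF2- replicate 4 was added after seeing the data. Scripts were tested on simulated data. Values of every library are given for the members of each role with the highest mean TPM (2 per role), the largest and the smallest log2 fold change in KLF2+ cells, and the 5 smallest p-values among those called in each other comparison. The members and lists were chosen with earlier results of these data known.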

Additional observations from a re-analysis of the deposited data

Results flagged for a closer look

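The responses of 31 ribosome biogenesis genes to the stimulus differed between KLF2+ and KLF2- cells in the main fit (edgeR, KLF2+ minus KLF2-, adjusted p under 0.05), each with a larger log2 fold change in KLF2+ cells. On the corrected scale, with background subtracted and scaling factors from genes with 50 CPM or more, 0 of them were called, with that scaling alone 4 were, and without stimulated KLF2- replicate 4 the main fit called 18. Among RNA polymerase I genes the difference in log2 fold change was 1.55 for Polr1c, 1.27 for Ubtf, 1.21 for Polr1d, 1.07 for Tcof1 and 0.79 for Rrn3. Among box C/D snoRNP genes it was 1.78 for Nop58 and 1.47 for Fbl. Among box H/ACA snoRNP genes the difference was 1.73 for Gar1, 1.34 for Nop10 and 1.32 for Dkc1. For scaffold and regulator genes it came to 2.29 for Npm1, 1.81 for Ncl, 1.68 for Mybbp1a, 1.64 for Nolc1, 1.59 for Ddx21 and 1.47 for Gnl3. Small subunit genes had differences of 1.80 for Noc4l, 1.48 for Imp4, 1.29 for Wdr75, 1.17 for Wdr43, 1.14 for Nop14 and 1.13 for Rrp12. Large subunit genes had differences of 1.64 for Ebna1bp2, 1.60 for Rrp1b, 1.57 for Bop1, 1.56 for Nop16, 1.46 for Nop2, 1.40 for Rrs1, 1.26 for Nip7, 1.21 for Pes1 and 1.16 for Wdr74. Groups of 2 libraries are too small for a search for single outlying libraries.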

How the results depend on the processing

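Counts of called members changed with the scale and with single libraries. In stimulated against unstimulated KLF2+ cells the main 35 higher and 0 lower became 22 and 1 on the corrected scale (background subtracted and scaled on genes with 50 CPM or more) and 22 and 1 with that scaling alone, 16 and 1 with limma on log2(TPM + 1) and 19 and 1 on log2(TPM + 0.1); 9 to 40 were called higher with each library left out, and 1 was lower on the corrected scale without stimulated KLF2- replicate 4. In KLF2- cells the 0 calls became 7 higher in that last fit, and leaving out each library gave 0 to 1 lower. Between unstimulated populations the 2 higher became 8 by DESeq2, 1 with the scaling alone, 4 with no filter, 13 on the corrected scale without stimulated KLF2- replicate 4, and 0 to 13 with each library left out. Between stimulated populations the 40 higher and 0 lower became 25 and 3 with limma at either pseudocount, and 1 was lower with the scaling alone; leaving out each library gave 39 to 40 higher. The 31 larger responses became 0 on the corrected scale, 4 with the scaling alone, 3 higher and 1 lower with limma on log2(TPM + 1), and 4 and 1 on log2(TPM + 0.1). On the corrected scale without stimulated KLF2- replicate 4 the members' median difference was 0.27, beside -0.14 over all genes. With each library left out of the main fit it was between 1.04 and 1.80. With limma on log2(TPM + 1), 8.13% of all genes were called higher and 16.3% lower in the KLF2+ response. Between stimulated populations 9.35% were higher and 64.2% lower, and in the difference 4.25% and 25.1%. On log2(TPM + 0.1) these shares were 9.15% and 31.7%, then 9.28% and 64.9%, then 4.44% and 28.7%. Between unstimulated populations 1.29% of genes were higher with no filter and 0.663% with the scaling alone. Among the named members recomputed under every alternative, the log2 fold changes that changed sign were, in the KLF2+ response, those of Polr1a (-0.093 and -0.10), Ubtf (-0.018 and -0.018) and Noc2l (-0.11 and -0.11) with limma at the larger and the smaller pseudocount, and that of Wdr12. Wdr12 had -0.50 on the corrected scale, -0.48 with the scaling alone, -0.64 and -0.66 with limma, -0.52 on the corrected scale without stimulated KLF2- replicate 4, and -0.18 to 0.24 with each library left out. Over all 41 members, whose values were above 0 in the main fit of these comparisons, 37 were above 0 between unstimulated populations, 36 between stimulated ones and 33 in the difference on the corrected scale. The cause was not tested.

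The replicate numbers gave 39 members higher in the KLF2+ response when used as a block, where 24.4% of genes were, 0 in the KLF2- response, where 1.62% were higher and 2.4% lower, and 35 in the difference, where 26.3% were higher. Deviations of same-numbered samples correlated at 0.631 in KLF2+ and 0.238 in KLF2- cells over 10395 genes, with only 1 such value per population, so the samples were taken to share only a number. No paired analysis was possible because KLF2+ and KLF2- libraries share no replicate number, for the comparisons between these populations. When a library was left out of a group of 2, the lone sample was assumed to vary like the other groups. At 2.99 M exon reads and 20.1% background, stimulated KLF2- replicate 4 limits what can be seen in KLF2- cells.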
